A study of Mus musculus with 14 samples.

Results

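The marker genes of hippocampal interneurons were followed through both RNA-seq experiments of a Tau mouse study. The members were the rows of the count tables whose gene name was Gad1, Gad2, Slc32a1, Sst, Npy, Vip, Cck, Pvalb, Calb2 or Reln, and all 10 were found in each table, among 27591 genes in either table. All 10 also passed the filter on low counts in both experiments. Dorsal hippocampus came from male C57BL6 mice aged 8 months, wild type (WT) or heterozygous THY-Tau22, a line that carries mutated human Tau under a Thy1 promoter active in neurons. In the basal experiment, mice rested without training, and their labels name no injection (basal WT, 3 libraries, and basal THY-Tau22, 2 libraries). In the learning experiment, WT mice injected with saline stayed in the home cage (WT VEH_HC, 3 libraries) or were trained in the Morris water maze, which tests memory of a place (WT VEH, 2 libraries). Trained THY-Tau22 mice received CSP, a carbon nanosphere carrier (TAU VEH, 2 libraries), or CSP-TTK21, the carrier bound to an activator of the acetyltransferases CBP and p300 (TAU MOL, 2 libraries). By its methods the study had dropped some learning samples, mice of a single litter, once their expression was seen to vary, so the spread behind all learning comparisons is that of the libraries kept. TAU VEH and WT VEH mice differed in genotype and in the injected vehicle, and the effects of these cannot be told apart.

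Interneurons are the local inhibitory cells of the hippocampus. They make GABA with the glutamic acid decarboxylases Gad1 and Gad2, load it into vesicles with the transporter Slc32a1, and fall into classes that are told apart by the peptide or calcium-binding protein they contain. Parvalbumin (Pvalb) marks fast-spiking cells around the cell bodies of pyramidal neurons, somatostatin (Sst) cells that reach their dendrites, Vip cells that mainly contact other interneurons, and cholecystokinin (Cck) a further basket cell class. Cck and calretinin (Calb2) are not limited to interneurons, since pyramidal cells also make Cck, and mossy cells of the dentate gyrus, Cajal-Retzius cells and thalamic neurons also make Calb2. In RNA of whole tissue, fewer cells of a class and less RNA per cell cannot be told apart.

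Libraries held from 28639121 to 37681155 counts on genes in the basal experiment and from 24693713 to 52180305 in the learning experiment. Thy1, whose promoter drives the transgene, lay between 786 and 914 CPM (counts scaled to a common library size, with edgeR's TMM scaling) in the 8 WT libraries and between 1805 and 2352 CPM in the 6 THY-Tau22 libraries, as the labels have it. The libraries also differed in choroid plexus, the ventricular tissue beside the hippocampus. The summed level of 12 of its markers was 75.8 to 231 CPM in WT VEH_HC, 1562 to 2415 in WT VEH, 232 to 277 in TAU VEH, 700 to 763 in TAU MOL, 266 to 434 in basal WT and 394.5 to 1298 in basal THY-Tau22 libraries, with no marker at 0 in any group. With library size in place of TMM scaling, the median change of all genes shifted to 0.15 (log2) in TAU VEH against WT VEH and 0.12 in TAU MOL against WT VEH. The split of called genes turned with it in both, from 608 higher and 1815 lower to 2578 higher and 1020 lower in TAU VEH against WT VEH. It turned from 103 higher and 844 lower to 757 higher and 326 lower in TAU MOL against WT VEH. In WT VEH against WT VEH_HC more genes were called higher than lower under both scalings, 900 against 513 with TMM and 1278 against 434 with library size.

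Levels were compared between genes per length, as counts per kilobase of annotated exon, scaled to library size as CPM is (RPKM). In basal WT libraries Cck had the highest mean level at 468 RPKM, followed by Sst at 303, Npy at 109.9 and Gad1 at 45.0 RPKM. Calb2, Pvalb and Slc32a1 followed at 35.7, 32.6 and 30.1 RPKM with overlapping libraries, and Calb2 also overlapped Gad1. Gad2 came next at 21.6, then Vip at 5.403 and Reln at 2.64 RPKM. In the learning experiment Sst stood first in all 4 groups, at 468 RPKM in WT VEH against 362 for Cck, although the libraries of these genes overlapped in WT VEH_HC. Vip and Reln had the lowest group means throughout, although Calb2 overlapped Vip in basal THY-Tau22 libraries. Vip rested on 191 to 490 counts per library and Pvalb on 477 to 1433 counts, while each Sst value rested on at least 5441 counts.

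The proximal promoters of 5 members are shown because Slc32a1, Pvalb, Cck and Vip carried the calls described below and Sst holds the textbook cAMP response element (CRE), the site of the factor CREB, which recruits CBP. Sequences are from RefSeq on GRCm38.p6, with 250 bases before and 50 after the annotated start, read 5′ to 3′ on the strand of the gene. Capitals mark the CRE, spelled TGACGTCA, or its core TGACG on either strand.
Sst, chr16:23890795-23891094, minus strand: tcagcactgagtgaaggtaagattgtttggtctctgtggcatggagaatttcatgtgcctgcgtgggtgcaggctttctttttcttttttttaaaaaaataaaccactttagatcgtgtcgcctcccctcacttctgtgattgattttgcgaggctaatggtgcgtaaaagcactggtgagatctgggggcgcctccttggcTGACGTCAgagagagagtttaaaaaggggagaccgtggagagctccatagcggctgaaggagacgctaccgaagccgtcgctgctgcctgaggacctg
Vip, chr10:5638968-5639267, plus strand: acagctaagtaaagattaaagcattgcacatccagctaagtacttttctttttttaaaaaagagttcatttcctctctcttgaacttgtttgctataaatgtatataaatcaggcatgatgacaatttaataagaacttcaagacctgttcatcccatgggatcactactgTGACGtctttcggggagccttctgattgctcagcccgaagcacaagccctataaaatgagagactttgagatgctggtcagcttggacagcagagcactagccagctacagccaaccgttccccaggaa
Cck, chr9:121495645-121495944, minus strand: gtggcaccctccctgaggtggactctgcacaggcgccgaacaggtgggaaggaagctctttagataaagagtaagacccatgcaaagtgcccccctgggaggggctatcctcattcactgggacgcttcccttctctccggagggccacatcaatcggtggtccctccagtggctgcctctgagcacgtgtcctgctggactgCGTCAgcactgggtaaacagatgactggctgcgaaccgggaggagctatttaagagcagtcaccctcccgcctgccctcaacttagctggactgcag
Pvalb, the first of 2 promoters, chr15:78206351-78206650, minus strand: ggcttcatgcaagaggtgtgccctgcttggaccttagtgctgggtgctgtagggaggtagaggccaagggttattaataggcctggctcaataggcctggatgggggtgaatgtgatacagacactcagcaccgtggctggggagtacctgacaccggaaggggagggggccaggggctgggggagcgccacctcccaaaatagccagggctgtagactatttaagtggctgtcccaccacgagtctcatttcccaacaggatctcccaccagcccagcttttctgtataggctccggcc
Slc32a1, chr2:158610508-158610807, plus strand: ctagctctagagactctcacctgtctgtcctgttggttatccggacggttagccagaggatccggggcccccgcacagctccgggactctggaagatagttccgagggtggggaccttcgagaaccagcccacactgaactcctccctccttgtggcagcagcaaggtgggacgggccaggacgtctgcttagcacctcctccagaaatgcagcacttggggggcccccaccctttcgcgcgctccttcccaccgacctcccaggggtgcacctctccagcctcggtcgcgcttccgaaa
Of the 10 members, 9 had an entry in the promoter table and Calb2 had none. The full CRE was found in the Sst promoter alone, starting 48 bases upstream of the start, compared with 2.03% of the 27025 genes in the table (1.79% of all 32851 promoters of this length). The core was found in 4 members, namely Sst (within the CRE), Vip at 79, Cck at 47 and Gad2 at 33 bases upstream, compared with 23.1% of all genes (20.8% of all promoters). Neither promoter of Pvalb and not that of Slc32a1 held these letters.

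**Figure D1:**
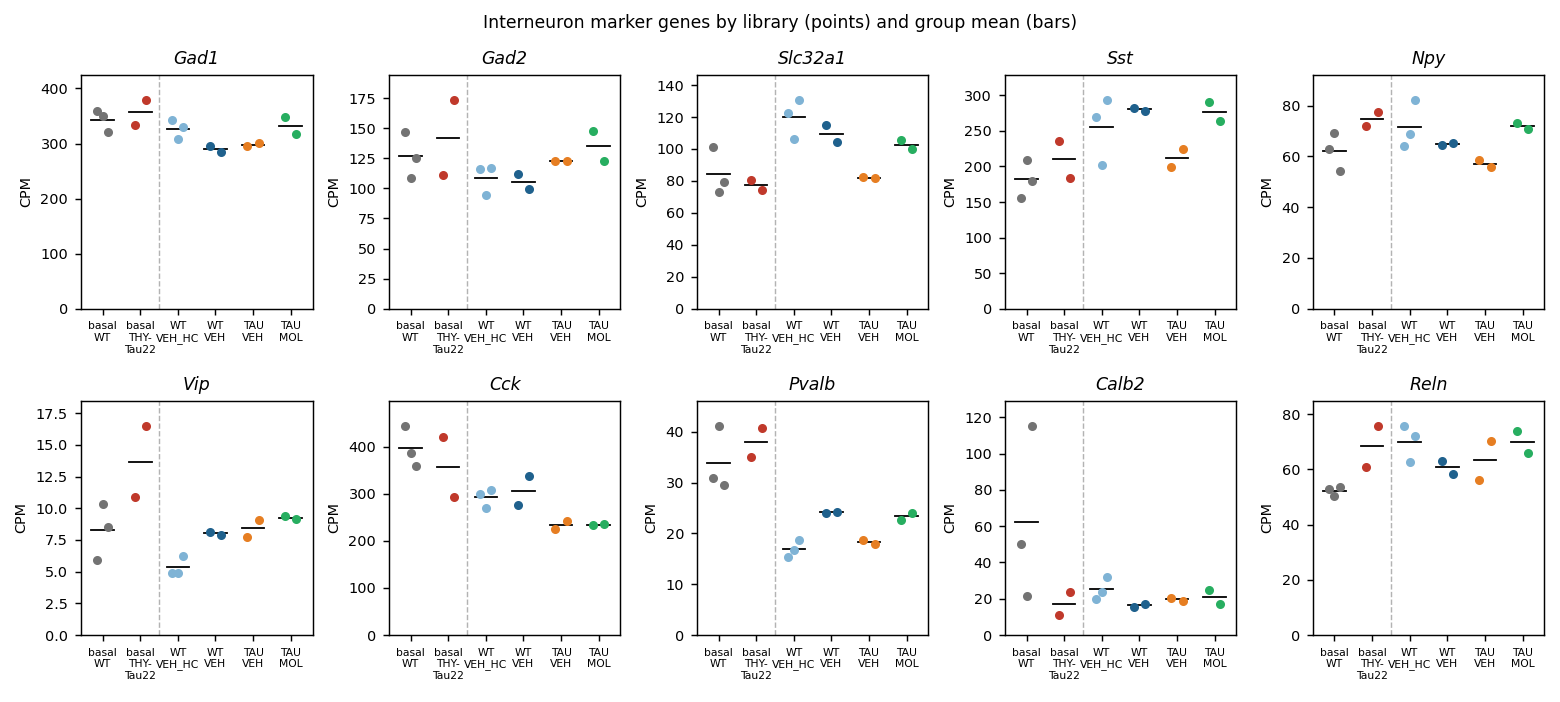
Level in CPM (linear axis from 0) of the 10 interneuron marker genes in each library, with points for libraries and bars for group means, and the basal experiment left of the dashed line. Slc32a1 at 81.6 and 82.3 CPM and Pvalb at 18.0 and 18.6 CPM lie lower in both TAU VEH libraries than in both WT VEH libraries, and Calb2 is widest among the basal WT libraries.

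In untrained mice, the comparison of basal THY-Tau22 with basal WT asked whether Tau pathology alone moved these markers. Of the 10 members, 0 were called by edgeR's quasi-likelihood test, which here required a Benjamini-Hochberg adjusted p below 0.05 over 16324 genes together with a log2 fold change beyond 0.2 either way, against 0.0245% of all genes (4 genes, 0.00613% higher and 0.0184% lower). With an unadjusted p under 0.05 there were 3 members and 803 genes, and DESeq2 called 0 members and 41 genes. The median log2 fold change of the members was 0.16, and that of all genes -0.01. Both basal THY-Tau22 libraries lay above all 3 basal WT libraries for Vip, Npy and Reln, while 9.01% of all genes did so. No member lay lower without overlap, against 9.49% of all genes lower and 18.5% not overlapping in either direction.

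The genes of GABA synthesis and packaging overlapped between the basal groups. Gad1, which makes most of the GABA, was at 359.5, 351 and 320.3 CPM in basal WT libraries and at 334 and 379.7 CPM in basal THY-Tau22 libraries, a log2 fold change of 0.05 with a 95% interval from -0.22 to 0.32. Gad2, the synaptic decarboxylase, had 147, 109 and 125 CPM against 111 and 174 CPM. Slc32a1 had 101, 72.9 and 79.6 CPM against 80.6 and 74.5 CPM, so that the lowest and the highest Slc32a1 libraries were both WT.

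Among the peptides, Sst overlapped, with 156, 209.6 and 179.7 CPM in basal WT and 236 and 183 CPM in basal THY-Tau22 libraries. Npy, neuropeptide Y, had 63.0, 69.4 and 54.2 CPM against 72.1 and 77.4 CPM. Vip had 5.89, 10.3 and 8.55 CPM against 10.9 and 16.5 CPM. The Vip libraries did not overlap, although the highest WT and the lowest THY-Tau22 library were close, and the log2 fold change was 0.73 (standard error 0.24, adjusted p = 0.90 in edgeR's quasi-likelihood test, and 0.046 to 0.9999 over its 12 alternatives). The highest Vip library was also the one with the highest choroid plexus sum of the basal experiment (1298 CPM), and with that level as a covariate the fold change was 0.36. Cck had 444, 388 and 359 CPM against 419.8 and 293 CPM, again with overlap.

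Calb2 had the largest fold change of the members in the basal experiment, and the widest spread relative to its mean (SD 48.1 CPM around a mean of 62.2 CPM in basal WT). Its level was 49.9, 21.4 and 115 CPM in basal WT libraries and 10.9 and 23.4 CPM in basal THY-Tau22 libraries. The groups overlapped through basal WT library 2, and the log2 fold change was -1.86 (standard error 0.58, unadjusted p = 0.0096, adjusted p = 0.90 in edgeR's quasi-likelihood test). Thalamus markers (7 genes, none at 0) were high in the same libraries, summing to 213, 102 and 228 CPM in basal WT and to 94.4 and 147 CPM in basal THY-Tau22 libraries. Markers of Cajal-Retzius cells (4 genes) summed to 13.7, 8.62 and 21.0 CPM against 8.87 and 9.93 CPM, and their part in the Calb2 values was not tested. Without basal WT library 3 the fold change was -1.06 with an adjusted p of 0.998, while testing every gene with at least 1 count gave an adjusted p of 6.58e-05 for Calb2. In that last fit the log2 fold change stayed at -1.86 and the standard error was 0.29 instead of 0.58.

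Parvalbumin and reelin, an extracellular protein of interneurons outside the principal cell layers, completed the basal comparison. Pvalb had 30.9, 41.2 and 29.6 CPM against 35.1 and 40.8 CPM, with overlap. Reln had 52.9, 50.3 and 53.7 CPM against 60.9 and 75.8 CPM. Reln was higher in both THY-Tau22 libraries, by 0.39 on the log2 scale (standard error 0.12, adjusted p = 0.90 in edgeR's quasi-likelihood test, and 0.091 to 0.9999 over its alternatives). The fold change was 0.22 with the GC and length correction and 0.23 with the choroid plexus covariate.

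**Figure D2:**
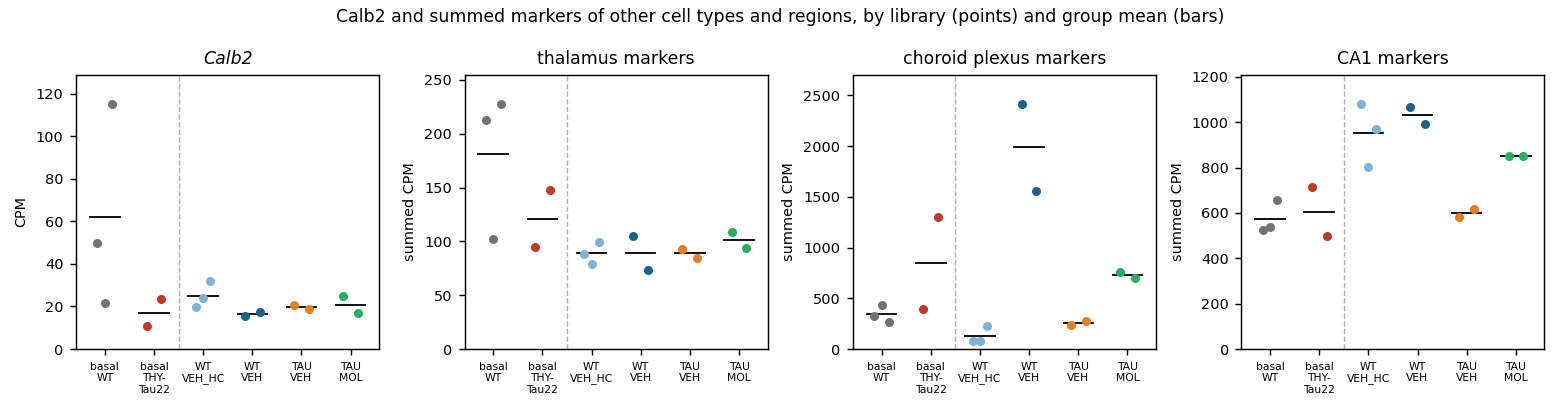
Calb2 in CPM and the summed CPM of 7 thalamus, 12 choroid plexus and 5 CA1 marker genes (linear axes from 0), with points for libraries, bars for group means and the basal experiment left of the dashed line. Calb2 and the thalamus sum are both high in basal WT libraries 1 and 3, and the choroid plexus sum is highest in WT VEH, at 1562 and 2415 CPM.

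Compared with WT mice left in the home cage, trained WT mice had higher levels of 2 of the 10 markers, Pvalb and Vip. The comparison of WT VEH with WT VEH_HC asked for the response to spatial training, and the vehicle was saline in both groups. Both calls were increases and 0 members were called lower, against 8.4% of all genes called (5.35% higher and 3.05% lower of 16820). The median log2 fold change of the members was -0.09, and that of all genes was -0.00 to the same precision. The libraries of 4 members did not overlap, 2 of them higher and 2 lower in trained mice, while 23% of all genes were higher, 20.8% lower and 43.8% in either direction without overlap.

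Pvalb was at 24.1 and 24.2 CPM in the WT VEH libraries and at 15.4, 16.7 and 18.7 CPM in the WT VEH_HC libraries. Both trained libraries lay above all home cage libraries and differed from each other by less than the home cage libraries did. The rise was 0.51 on the log2 scale (standard error 0.086, adjusted p = 0.0083 in edgeR's quasi-likelihood test, and 1.08e-05 to 0.98 over its 17 alternatives). Vip was at 8.15 and 7.89 CPM in WT VEH and at 4.86, 4.89 and 6.27 CPM in WT VEH_HC libraries. Vip also did not overlap and rose by 0.59 on the log2 scale (standard error 0.13, adjusted p = 0.025 in edgeR's quasi-likelihood test, and 0.00063 to 0.97 over 17 alternatives).

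Calb2 and Gad1 were lower in both trained libraries without passing the limit. Calb2 had 15.5 and 17.3 CPM in WT VEH and 19.9, 23.7 and 31.8 CPM in WT VEH_HC libraries, a log2 fold change of -0.62 (adjusted p = 0.062 in edgeR's quasi-likelihood test). It passed the limit without WT VEH_HC library 1, the lowest of its group, where the log2 fold change was -0.76 and the adjusted p 0.039. Calb2 also passed without the filter on low counts (-0.62, adjusted p = 2.9e-08 in edgeR's quasi-likelihood test), with a standard error of 0.098 instead of 0.19. Markers of mossy cells, which also make Calb2, summed to 61.9 and 64.9 CPM in WT VEH and to 67.6 to 68.9 CPM in WT VEH_HC libraries, with 0 of 4 called and a median log2 fold change of -0.15. Of 6 dentate gyrus markers 2 were called lower, and the part of these cells in the Calb2 values was not tested. Gad1 had 296 and 284 CPM against 342, 308 and 331 CPM, a log2 fold change of -0.17 (adjusted p = 0.12 in edgeR's quasi-likelihood test).

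The remaining 6 members overlapped between trained and home cage mice. Gad2 had 112 and 99.1 CPM in WT VEH and 116, 94.1 and 117 CPM in WT VEH_HC libraries, and Slc32a1 115 and 105 CPM against 122, 106 and 131 CPM. Sst had 283 and 278 CPM against 270.1, 202 and 294 CPM, with home cage library 2 below the others. Npy had 64.7 and 65.1 CPM against 64.2, 68.7 and 82.4 CPM. Cck had 276 and 337 CPM against 299.8, 269 and 309 CPM, and Reln 63.1 and 58.5 CPM against 75.6, 62.5 and 72.1 CPM. The log2 fold changes of these 6 genes ran from -0.20 for Reln to 0.14 for Sst.

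Both calls depended on the trained libraries. Without WT VEH library 1 the adjusted p was 0.126 for Pvalb and 0.229 for Vip, and without WT VEH library 2 it was 0.054 and 0.094, while the fold changes stayed between 0.51 and 0.61. Vip also lost its call without WT VEH_HC library 1 (adjusted p = 0.065), with only the 5 libraries of the comparison in the fit (0.062), and with GC content and gene length corrected for (log2 fold change 0.38, adjusted p = 0.078), whereas Pvalb was still called with that correction (0.46, adjusted p = 0.011, all from edgeR's quasi-likelihood test). The choroid plexus sum moved with this comparison, with 12 of its 12 markers called higher at a median log2 fold change of 3.77. Its sums in WT VEH (1562 to 2415 CPM) and WT VEH_HC libraries (75.8 to 231 CPM) did not overlap. A covariate of this level can therefore hardly be told apart from training. With the choroid plexus level of each library as a covariate 0 of all genes were called, and the fold changes were 0.10 for Pvalb and -0.33 for Vip. Over the 17 alternatives the lowest log2 fold changes were -0.73 for Slc32a1, -0.77 for Npy, -1.71 for Calb2 and -0.64 for Gad2. The part of choroid plexus in the member values was not tested.

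**Figure D3:**
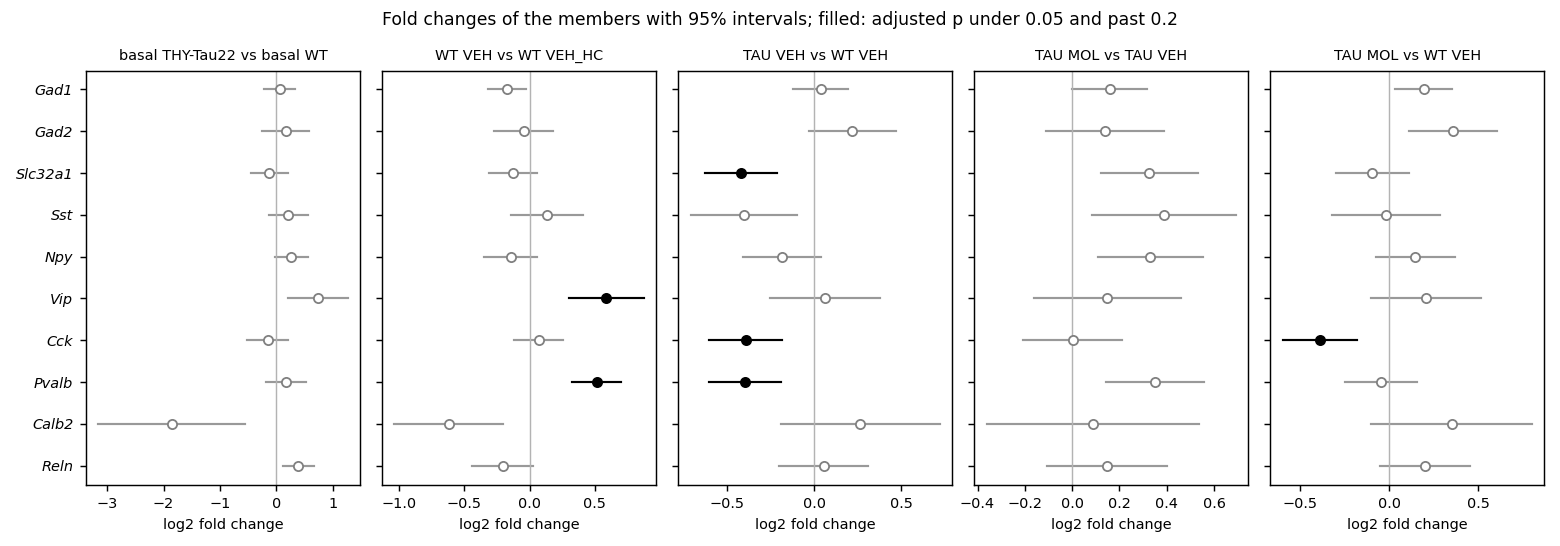
Log2 fold changes of the 10 members in 5 comparisons (one panel each, linear axes with a different range per panel), with points for the fitted value, lines for the 95% interval, and filled points for genes that were called (adjusted p below 0.05 and log2 fold change beyond 0.2). Pvalb and Vip are filled to the right of 0 in WT VEH against WT VEH_HC, Slc32a1, Cck and Pvalb to the left in TAU VEH against WT VEH, and Cck alone in TAU MOL against WT VEH.

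In trained THY-Tau22 mice given the carrier, 3 of the 10 markers were lower than in trained WT mice, namely Slc32a1, Pvalb and Cck, and 0 were called higher. The comparison of TAU VEH with WT VEH set trained mice of both genotypes side by side, each with its own vehicle. All 3 calls were decreases, and of all genes 10.8% were called lower, 3.61% higher and 14.4% in either direction. The median log2 fold change of the members was -0.07 against 0.00 for all genes. In 5 members both TAU VEH libraries lay below both WT VEH libraries and in 2 members above them, while of all genes 29.4% lay below, 28.5% above and 57.9% either way without overlap.

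The transporter Slc32a1, which lies on chromosome 2 of mm9 from 158436494 to 158441484 (plus strand), had the lowest adjusted p. It was at 82.3 and 81.6 CPM in the TAU VEH libraries and at 115 and 105 CPM in the WT VEH libraries. The groups did not overlap, and Slc32a1 fell by 0.42 on the log2 scale (standard error 0.094, adjusted p = 0.012 in edgeR's quasi-likelihood test, and 3.79e-05 to 0.99 over its 17 alternatives). Its exons overlap those of the antisense gene Gm14205, and the library kit does not mark the strand, so reads from both cannot be told apart there.

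The decarboxylases were not called. Gad1 had 295 and 300.3 CPM in TAU VEH against 296 and 284 CPM in WT VEH libraries, a log2 fold change of 0.04 with a 95% interval from -0.12 to 0.20. Gad2 had 122.6 and 122.8 CPM against 112 and 99.1 CPM, higher in both TAU VEH libraries, with a log2 fold change of 0.22 (adjusted p = 0.25 in edgeR's quasi-likelihood test). Gad2 was called higher in 2 of its 17 alternatives, with library size in place of TMM scaling (0.37, adjusted p = 0.045) and with only the compared libraries in the fit (0.23, adjusted p = 0.037). With the GC and length correction the log2 fold changes were -0.050 for Gad1, 0.094 for Gad2 and -0.036 for Slc32a1, and the difference between these genes was not tested.

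Pvalb was at 18.6 and 18.0 CPM in the TAU VEH libraries, within the range of the home cage libraries, and at 24.1 and 24.2 CPM in the WT VEH libraries. Pvalb lies on chromosome 15 of mm9 from 78021544 to 78036830 (minus strand). It fell by 0.40 on the log2 scale without overlap (standard error 0.095, adjusted p = 0.017 in edgeR's quasi-likelihood test, and 0.0034 to 0.81 over 17 alternatives). Calb2, the other calcium-binding protein, had 20.5 and 18.8 CPM against 15.5 and 17.3 CPM and was not called (log2 fold change 0.26, 95% interval from -0.19 to 0.72).

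Cck, on chromosome 9 of mm9 from 121398943 to 121404807 (minus strand), was the third gene called. Its level was 226 and 242 CPM in TAU VEH against 276 and 337 CPM in WT VEH libraries. The Cck libraries did not overlap, although the WT VEH libraries lay further apart than the TAU VEH libraries, and Cck fell by 0.39 on the log2 scale (standard error 0.096, adjusted p = 0.018 in edgeR's quasi-likelihood test, and 6.73e-05 to 0.50 over 17 alternatives). CA1 pyramidal cells are among the other cells that make Cck, and the 5 CA1 markers summed to 584 and 619 CPM in TAU VEH and to 1069 and 994 CPM in WT VEH libraries, with 4 of the 5 called lower. In TAU MOL the CA1 markers summed to 851 and 853 CPM, above both TAU VEH libraries, while Cck stood at 234 and 235 CPM, within the range of TAU VEH. The part of CA1 cells in the Cck values was not tested.

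Sst showed a difference of similar size that missed the limit. It was at 199 and 225 CPM in TAU VEH and at 283 and 278 CPM in WT VEH libraries. The log2 fold change was -0.40 with a standard error of 0.14, larger than that of Cck (adjusted p = 0.078 in edgeR's quasi-likelihood test). Sst was called lower in 6 of 17 alternatives, DESeq2 among them (adjusted p = 0.016). Npy had 58.6 and 55.7 CPM against 64.7 and 65.1 CPM (log2 fold change -0.18, adjusted p = 0.29 in edgeR's quasi-likelihood test).

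Vip and Reln overlapped between the groups. Vip had 7.74 and 9.10 CPM in TAU VEH against 8.15 and 7.89 CPM in WT VEH libraries, a log2 fold change of 0.06 with a 95% interval from -0.25 to 0.37. Reln had 56.2 and 70.4 CPM against 63.1 and 58.5 CPM, a log2 fold change of 0.05 with a 95% interval from -0.20 to 0.31.

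The calls of the 3 decreases depended on single libraries and on the scaling, and those of Slc32a1 and Cck also on the GC and length correction. With library size in place of TMM scaling none of the 3 was called, and the log2 fold change was -0.27 for Slc32a1 (adjusted p = 0.058), -0.25 for Pvalb (0.064) and -0.24 for Cck (0.086, all from edgeR's quasi-likelihood test). Pvalb was not called without either WT VEH library (adjusted p = 0.0897 and 0.0891 without libraries 1 and 2) or either TAU VEH library (0.0886 and 0.0946), although its log2 fold change stayed between -0.43 and -0.37 and the calls over all genes also fell, from 2423 to as few as 915. Slc32a1 was not called without WT VEH library 1 (log2 fold change -0.34, adjusted p = 0.113) or TAU VEH library 1 or 2 (0.0823 and 0.0735). Cck was not called without WT VEH library 2 (-0.24, adjusted p = 0.182) or TAU VEH library 1 or 2 (0.156 and 0.0603, all from edgeR's quasi-likelihood test). The exons of Slc32a1 were 61.9% GC, those of Cck 57.3% and those of Pvalb 49.8%, and the median over all tested genes was 50.0%, over genes called lower 57.1% and over genes called higher 44.0%. Once GC content and gene length were corrected for, the log2 fold change was -0.04 for Slc32a1 and -0.13 for Cck, neither called, and -0.41 for Pvalb, which was called (adjusted p = 0.033 in edgeR's quasi-likelihood test). Sst, at 56.9% GC, had -0.16 with the correction.

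The choroid plexus sum was lower in TAU VEH libraries, and 12 of its 12 markers were called lower at a median log2 fold change of -2.74. The sums of TAU VEH (232 to 277 CPM) and WT VEH libraries (1562 to 2415 CPM) did not overlap. A covariate of this level can therefore hardly be told apart from the group, and the part of choroid plexus in the member values was not tested. With its level as a covariate 0 genes were called. The log2 fold changes were then -0.01 for Slc32a1, -0.115 for Pvalb, -0.34 for Cck and 0.21 for Sst. Over the 17 alternatives the highest log2 fold changes were 0.63 for Gad2, 0.69 for Vip and 1.03 for Calb2. Striatum markers, of a region rich in GABA neurons, moved the same way, with sums of 159 and 140.3 CPM in WT VEH and 90.4 and 91.5 CPM in TAU VEH libraries, negative fold changes in 6 of 6 genes at a median of -0.48 on the log2 scale, and 2 called lower. Their part in the member values was not tested.

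**Figure D4:**
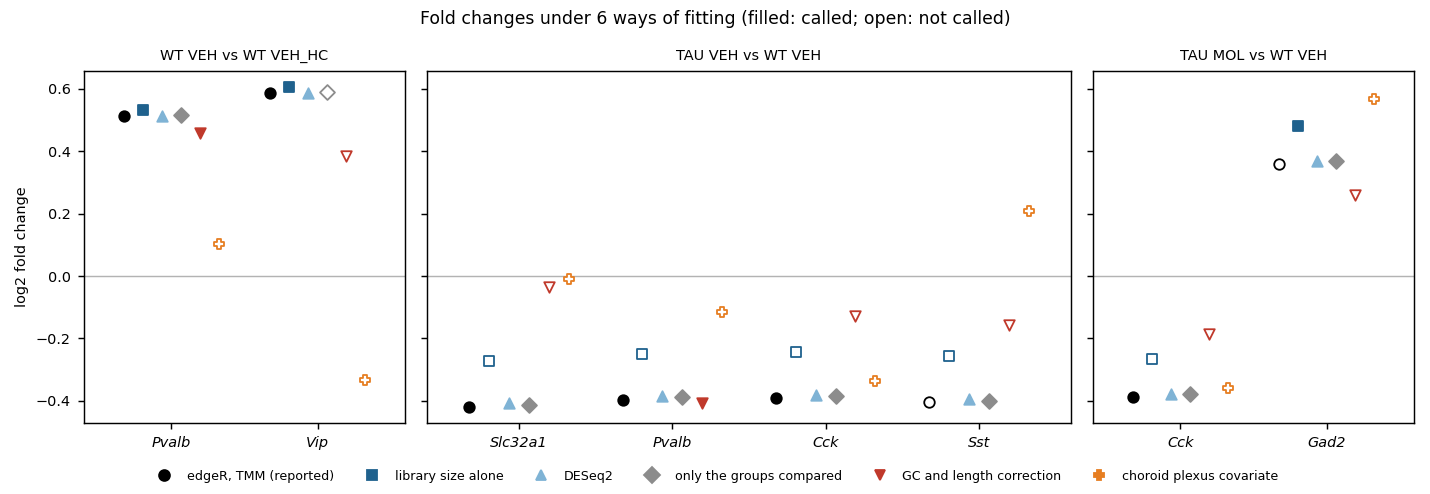
Log2 fold change (linear axis) of members called in edgeR or DESeq2 in 3 comparisons under 6 ways of fitting, with filled symbols where the gene was called. In TAU VEH against WT VEH the GC and length correction moves Slc32a1 from -0.42 to -0.04 and leaves Pvalb at -0.41, and no symbol of the choroid plexus covariate is filled.

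CSP-TTK21 was compared with the carrier in trained THY-Tau22 mice, to ask whether the activator moved these genes. In TAU MOL against TAU VEH 0 of the 10 members were called, and 0% of all genes were called by edgeR, with 1064 genes at an unadjusted p under 0.05 and 54 genes, none of them a member, called by DESeq2. The libraries of 7 members did not overlap, each with both TAU MOL libraries higher, while 21.5% of all genes did so and 38.9% did not overlap in either direction. The median log2 fold change of the members was 0.15 and that of all genes 0.01. TAU VEH libraries enter this comparison and the one with WT VEH alike, so the fold changes of both share the TAU VEH values.

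For Pvalb, TAU MOL libraries held 22.7 and 24.0 CPM against 18.6 and 18.0 CPM in TAU VEH, a log2 fold change of 0.35 (unadjusted p = 0.0033, adjusted p = 0.41 in edgeR's quasi-likelihood test). Slc32a1 had 106 and 99.9 CPM against 82.3 and 81.6 CPM, a log2 fold change of 0.33 (unadjusted p = 0.0049, adjusted p = 0.45 in edgeR's quasi-likelihood test). Both genes were higher in each TAU MOL library than in each TAU VEH library, by more than the libraries of a group differed.

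The same held for Npy and Sst. Npy had 73.1 and 70.7 CPM in TAU MOL against 58.6 and 55.7 CPM in TAU VEH libraries, a log2 fold change of 0.33 (unadjusted p = 0.0074, adjusted p = 0.52 in edgeR's quasi-likelihood test). Sst had 291 and 264 CPM against 199 and 225 CPM, a log2 fold change of 0.39 (unadjusted p = 0.017, adjusted p = 0.66 in edgeR's quasi-likelihood test). Without the filter on low counts, Sst, Slc32a1 and Npy were called higher (adjusted p = 0.00071, 0.022 and 0.028 in edgeR's quasi-likelihood test). Their log2 fold changes stayed at 0.39, 0.32 and 0.33, and their standard errors were 0.082, 0.085 and 0.088. With the filter the standard errors were 0.14, 0.094 and 0.10.

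Gad1, Gad2 and Vip were higher in both TAU MOL libraries by less. Gad1 had 348 and 317 CPM against 295 and 300.3 CPM, a log2 fold change of 0.16. Gad2 had 148 and 122.9 CPM against 122.6 and 122.8 CPM, so that the lower TAU MOL library lay at the TAU VEH level. Vip had 9.39 and 9.15 CPM against 7.74 and 9.10 CPM, also nearly touching. Cck was level, with 234 and 235 CPM in TAU MOL against 226 and 242 CPM in TAU VEH libraries, and a log2 fold change of 0.00 with a 95% interval from -0.21 to 0.21. Calb2, at 24.9 and 16.9 CPM, and Reln, at 73.9 and 65.9 CPM in TAU MOL, overlapped the TAU VEH libraries. The choroid plexus sum was also higher in TAU MOL (700 to 763 CPM) than in TAU VEH (232 to 277 CPM). All 5 CA1 markers had positive fold changes in the same comparison, at a median log2 fold change of 0.46, and 5 of 6 striatum markers, at a median of 0.29, with 0 of either list called. The part of these cells in the member values was not tested. With the choroid plexus level as a covariate the log2 fold changes were 0.21 for Pvalb, 0.125 for Slc32a1, 0.12 for Npy and 0.09 for Sst, with 0 of all genes called. The choroid plexus sums did not overlap between these groups, so this fit can hardly tell that level apart from the treatment.

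Against trained WT mice, 1 member differed in CSP-TTK21-treated THY-Tau22 mice. Cck was lower in TAU MOL than in WT VEH, with 234 and 235 CPM against 276 and 337 CPM. Of all genes 5.63% were called, and 5.02% were called lower. The decrease of Cck was -0.39 on the log2 scale (standard error 0.096, adjusted p = 0.038 in edgeR's quasi-likelihood test), and it held in 8 of 17 alternatives. It did not hold without either WT VEH library (adjusted p = 0.067 and 0.330), either TAU VEH library (0.062 and 0.061) or either TAU MOL library (0.210 and 0.183). The fold change shrank to -0.24 without WT VEH library 2, was -0.51 without WT VEH library 1, and stayed at -0.39 without any 1 library of TAU VEH or TAU MOL. The call was also lost with the GC and length correction (log2 fold change -0.19), library size in place of TMM scaling (-0.27) or the choroid plexus covariate, where the fold change was -0.36 and the adjusted p 0.276. The Cck values of TAU VEH and TAU MOL were thus set against the same WT VEH libraries.

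Pvalb, Slc32a1 and Sst in TAU MOL lay near WT VEH. Their log2 fold changes were -0.05 for Pvalb (95% interval from -0.25 to 0.16), -0.09 for Slc32a1 (from -0.30 to 0.11) and -0.02 for Sst (from -0.32 to 0.29). With library size in place of TMM scaling all 3 had the other sign, between 0.03 and 0.10. Over the 17 alternatives the log2 fold changes reached 0.10 for Pvalb, 0.19 for Slc32a1 and 0.29 for Sst. Gad2 was higher in both TAU MOL libraries, at 148 and 123 CPM against 112 and 99.1 CPM, a log2 fold change of 0.36 (adjusted p = 0.095 in edgeR's quasi-likelihood test), and DESeq2 called it (adjusted p = 0.013). Gad1 was at 348 and 317 CPM against 296 and 284 CPM, a log2 fold change of 0.19 (adjusted p = 0.16 in edgeR's quasi-likelihood test). The libraries of 5 members were higher and of 2 members lower without overlap, while of all genes 25.6% were higher, 26.9% lower and 52.5% either way without overlap.

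The genotype difference was also compared between the experiments, in a fit over all 14 libraries. Training and sequencing table, and injection as far as the labels give it, differ together between them and cannot be told apart. Of the 10 members 0 were called for a difference of differences, against 0.129% of 17026 genes (22 genes, with 1325 at an unadjusted p under 0.05, and 121 genes but 0 members in DESeq2). The THY-Tau22 against WT log2 difference of trained mice minus that of basal mice was -0.58 for Sst, -0.52 for Pvalb, -0.41 for Npy and 2.15 for Calb2 (unadjusted p = 0.026, 0.018, 0.030 and 0.0085, adjusted p from 0.44 to 0.58 in edgeR's quasi-likelihood test). For Calb2 the basal difference was -1.86, with basal WT libraries from 21.4 to 115 CPM, and the trained difference 0.26. Gad1 was nearest to 0 at 0.02, with a 95% interval from -0.26 to 0.29.

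Ratios within a library do not depend on the scaling between libraries, so each subtype marker was also set against the summed CPM of Gad1, Gad2 and Slc32a1, as a log2 ratio without a test. The ratio of Pvalb was 0.65 higher in WT VEH than in WT VEH_HC libraries and 0.39 below WT VEH in TAU VEH libraries, both without overlap. In TAU MOL it was 0.17 above TAU VEH and 0.22 below WT VEH. The ratio of Sst was 0.40 below WT VEH in TAU VEH libraries, where the pooled SD between libraries was 0.092. In TAU MOL the Sst ratio was 0.21 above TAU VEH and 0.19 below WT VEH, again without overlap. The ratio of Vip was 0.73 higher in trained than in home cage WT libraries and overlapped among the 3 trained groups. The ratio of Npy was 0.18 below WT VEH in TAU VEH, 0.15 higher in TAU MOL than in TAU VEH, and overlapped between TAU MOL and WT VEH. The ratio of Sst was also 0.29 higher in WT VEH than in WT VEH_HC libraries, without overlap. In CPM the Sst libraries overlapped there, at a log2 fold change of 0.14, beside -0.17 for Gad1, -0.05 for Gad2 and -0.13 for Slc32a1. How often such ratios of other genes did not overlap was not computed. The ratio of Cck was 0.38 below WT VEH in TAU VEH, and in TAU MOL it was 0.55 below WT VEH and 0.18 below TAU VEH, each without overlap. In CPM Cck was level between TAU MOL and TAU VEH (log2 fold change 0.00, with overlap). The genes it was divided by had log2 fold changes of 0.16 (Gad1), 0.14 (Gad2) and 0.33 (Slc32a1) there. The differences of Calb2 and Reln in the learning experiment ran from -0.46 to 0.27 and from -0.067 to 0.059. In the basal experiment the ratio was 1.69 below WT in THY-Tau22 libraries for Calb2, 0.68 above for Vip and 0.33 above for Reln, each without overlap, although the Calb2 libraries overlapped in CPM and in their ratio to Gad1 alone.

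Other genes of interneurons were read from lists of GABA transport and breakdown (8 tested), interneuron transcription factors (13), other subtype genes (20) and receptors of the member peptides and of reelin (14). None was called in the basal comparison or in TAU MOL against TAU VEH, and 0 of the 13 transcription factors were called in any comparison. In trained against home cage WT mice, 2 of the 20 subtype genes fell, where 3.05% of all genes were called lower: Nos1, neuronal nitric oxide synthase, at 159 against 221 CPM (log2 fold change -0.48, adjusted p = 0.0075), and Kcnc1, a potassium channel of fast-spiking cells, at 262 against 322 CPM (-0.30, adjusted p = 0.021 in edgeR's quasi-likelihood test). Among the receptors, Cckbr, a receptor of cholecystokinin, fell from 13.2 to 8.88 CPM (log2 fold change -0.57, adjusted p = 0.015 in edgeR's quasi-likelihood test). Without WT VEH library 1 none of the 3 was called, at log2 fold changes of -0.43 for Nos1, -0.32 for Kcnc1 and -0.57 for Cckbr. Without WT VEH library 2 Kcnc1 (-0.28) and Cckbr (-0.56) were not called. Kcnc1 was also not called with the GC and length correction (log2 fold change -0.16, adjusted p = 0.133) or with only the compared libraries in the fit (0.072). With the choroid plexus covariate none of the 3 was called, at log2 fold changes of -0.50 for Nos1, -0.21 for Kcnc1 and -0.38 for Cckbr. The median log2 fold changes of the lists in this comparison were -0.17 for transport and breakdown, -0.09 for transcription factors, 0.02 for subtype genes and -0.12 for receptors, beside -0.003 for all genes. In the same order they were 0.01, -0.15, -0.07 and 0.15 in TAU VEH against WT VEH (all genes 0.004). In TAU MOL against TAU VEH they were 0.04, 0.21, 0.06 and -0.01 (all genes 0.009).

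In TAU VEH against WT VEH, 1 of the 8 genes of GABA transport and breakdown fell, Slc6a11, a GABA transporter of astrocytes, where 10.8% of all genes were called lower. Its mean was 196 CPM in TAU VEH and 268 CPM in WT VEH (log2 fold change -0.45, adjusted p = 0.0020 in edgeR's quasi-likelihood test). It was called in 16 of 17 alternatives. Slc6a11 was also lower in TAU MOL than in WT VEH at 198 CPM (-0.44, adjusted p = 0.010 in edgeR's quasi-likelihood test), a call made in 11 of 17 alternatives and lost with the GC and length correction (-0.34, adjusted p = 0.080) and the choroid plexus covariate (-0.40, adjusted p = 0.201). Of the 20 subtype genes 1 fell and 1 rose, against 10.8% called lower and 3.61% called higher of all genes, so these counts lie near the background. Syt2, a synaptotagmin of fast-spiking terminals, fell from 56.9 to 33.0 CPM (-0.78, adjusted p = 0.0028), and held in 16 of 17 alternatives. Cnr1, the cannabinoid receptor of Cck basket cells, rose from 123 to 158 CPM (0.36, adjusted p = 0.0067 in edgeR's quasi-likelihood test), with 0.23 and no call after the GC and length correction. Cnr1 was also not called without WT VEH library 2 or TAU VEH library 2 (log2 fold changes 0.34 and 0.29). Slc6a11 in TAU MOL against WT VEH was not called without any 1 library of TAU MOL or WT VEH (-0.52 to -0.36). None of the 3 genes was called with the choroid plexus covariate, at log2 fold changes of -0.37, -0.69 and 0.47 in TAU VEH against WT VEH.

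The genes whose levels ran most like the members called were found by the root mean square difference of centred log2 CPM over the 9 learning libraries, among 12422 genes. For Pvalb these were Trib1 (0.086), Bcl6 (0.097) and Polr2k (0.099), and for Slc32a1 they were Gpr153 (0.052), Sik3 (0.062) and Tyro3 (0.062). For Cck they were AI854703 (0.042), Higd2a (0.047) and Gm16517 (0.047), and for Vip Fam176a (0.063), Lamp2 (0.074) and Zfp748 (0.085). None of these 12 genes was a member. Over the basal libraries, centred on their own mean, the differences in the same order were 0.39, 0.17 and 0.13 for the genes near Pvalb. They were 0.33, 0.13 and 0.092 for those near Slc32a1, 0.17, 0.13 and 0.064 near Cck, and 0.40, 0.39 and 0.37 near Vip. The members nearest to Pvalb were Sst and Vip at 0.23, beside 0.24 for the distance of Pvalb from its own mean over the libraries. Nearest to Slc32a1 were Npy at 0.14, Cck at 0.17 and Sst at 0.17, beside its own 0.22, and Npy stood at rank 986 of the 12422 genes. Nearest to Cck was Slc32a1 at 0.17, beside 0.19, and nearest to Vip was Pvalb at 0.23, beside 0.35.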

How the data were processed

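RNA-seq libraries of dorsal hippocampus were read from 2 tables, the basal experiment (5 libraries) and the learning experiment (9 libraries). The authors made poly-A libraries with a kit that does not mark the strand, aligned single-end reads to mm9 with TopHat2 2.0.10 and Bowtie2 2.1.0, and counted uniquely aligned reads per Ensembl gene with HTSeq 0.5.4p3 (DESeq2 was also listed in the submitters' processing notes). The authors deposited these raw read counts, and every test was run on them. The normalized signal that the authors deposited in the same tables equals each library's counts over a constant. It served to check the columns only. Lines without values (138, in the learning experiment) were left out, and 0 columns of per-sample values had no sample. Samples were grouped by their labels. By the study's methods, learning samples were single mice, and those of a litter that varied strongly were dropped after their data were seen, so p-values measure the spread between the libraries kept.

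Counts were scaled with TMM factors, filtered with filterByExpr and fitted with the quasi-likelihood test of edgeR 4.0.16 (R 4.3.3), the basal libraries alone and the 9 learning libraries together, with Benjamini-Hochberg adjustment over all genes tested. A call required an adjusted p below 0.05 and a log2 fold change beyond 0.2 either way. The common coefficient of variation was 0.129 in the basal and 0.0840 in the learning experiment. Ratios and marker sums were computed from CPM, and log2 CPM used a prior count of 1. Alternatives were DESeq2 1.42.0, edgeR with the DESeq2 size factors or without TMM factors, no filter (at least 1 count), only the groups compared, the replicate number as a block, per-library loess offsets on GC content and gene length (span 0.3), the mean log2 CPM of the choroid plexus markers as a covariate, and each library left out. For the difference between experiments the block, the GC and length correction and the left-out libraries were added after the data were seen. The edgeR fit with TMM factors, the edgeR fit with the GC and length correction and DESeq2 were tested on simulated data first. The other alternatives were not. Python 3.11.15 with pandas 2.3.3, numpy 2.4.6 and matplotlib 3.10.9 made tables and plots.

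The members, the other gene lists and the marker lists (choroid plexus, neocortex, thalamus, striatum, Cajal-Retzius cells, dentate gyrus, CA1, CA3, mossy cells, microglia) were chosen with earlier results of these data known. All 10 members are named. From each other list at most 4 called genes per comparison are named, those with the lowest adjusted p. For the 4 members called with the lowest adjusted p, the 3 genes nearest in centred log2 CPM are named, among tested genes with a mean of at least 100 counts. Gene positions, exon lengths and GC content came from the NCBIM37 (mm9) genome and its GENCODE annotation, and promoters from a RefSeq table on GRCm38.p6, a later build whose coordinates are not those of the counts.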

Additional observations from a re-analysis of the deposited data

How the results depend on the processing

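The counts of members called, 2 in WT VEH against WT VEH_HC, 3 in TAU VEH against WT VEH and 1 in TAU MOL against WT VEH, all depended on the settings, and the cause was not tested unless the setting itself (fewer libraries) gives it. The numbers of members called and of all genes called follow, where they moved by over 1.5 times. Without a filter on low counts, 2 members and 125 genes were called in the basal comparison (0 and 4 with the filter), 2686 genes in WT VEH against WT VEH_HC, 3 members and 233 genes in TAU MOL against TAU VEH, 3 members and 1590 genes in TAU MOL against WT VEH, and 77 genes in the difference between experiments. DESeq2 called 41 genes in the basal comparison, 54 in TAU MOL against TAU VEH, 121 in the difference between experiments, and 2 members in TAU MOL against WT VEH. With only the groups compared, 1 member and 310 genes were called in WT VEH against WT VEH_HC, 5 members in TAU VEH against WT VEH, 60 genes in TAU MOL against TAU VEH, and 2 members and 1490 genes in TAU MOL against WT VEH. Library size alone gave 1 member in TAU VEH against WT VEH, Gad2, called higher, while Slc32a1, Pvalb and Cck lost their calls, and 2 in TAU MOL against WT VEH, Gad1 and Gad2, both higher, while Cck lost its call. The GC and length correction gave 12 genes in the basal comparison, 1 member and 743 genes in WT VEH against WT VEH_HC, 1 member and 506 genes in TAU VEH against WT VEH, and 0 members and 21 genes in TAU MOL against WT VEH. With the choroid plexus covariate, 2 genes were called in the basal comparison, 0 members and 0 genes in WT VEH against WT VEH_HC and in TAU VEH against WT VEH, and 0 members and 2 genes in TAU MOL against WT VEH. In each learning comparison the choroid plexus sums did not overlap, so this covariate can hardly be told apart from the group there. Same-numbered libraries deviated together in some pairs of groups only (correlations of their deviations from the group means across genes of 0.21 and 0.24 between WT VEH_HC and TAU MOL and of 0.11 between WT VEH and TAU VEH, and -0.16 to 0.073 in the others), and nothing in the labels says that a number marks a shared litter or day, so the numbers were not taken to pair the samples. With the replicate block, 37 genes were called in the basal comparison, 3000 genes in WT VEH against WT VEH_HC and 2 members in TAU MOL against WT VEH, and the log2 fold change of Gad2 turned to 0.0094 in WT VEH against WT VEH_HC. The block added Sst in TAU VEH against WT VEH and Gad2 in TAU MOL against WT VEH to the calls (adjusted p = 0.041 and 0.024 in edgeR's quasi-likelihood test).

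With the choroid plexus covariate the log2 fold change became -0.014 for Pvalb, 0.068 for Cck, -0.065 for Gad1 and -0.19 for Gad2 in the basal comparison, and -0.76 for Sst, -0.33 for Vip and -0.014 for Cck in WT VEH against WT VEH_HC. It became 0.21 for Sst and 0.25 for Npy in TAU VEH against WT VEH, -0.16 for Vip, -0.024 for Cck, -0.30 for Calb2, -0.0055 for Reln and -0.061 for Gad2 in TAU MOL against TAU VEH, and 0.29 for Sst, 0.10 for Pvalb and 0.12 for Slc32a1 in TAU MOL against WT VEH. With the GC and length correction it became -0.0097 for Gad1 and 0.028 for Slc32a1 in the basal comparison, -0.089 for Vip, -0.11 for Reln and -0.050 for Gad1 in TAU VEH against WT VEH, -0.059 for Cck in TAU MOL against TAU VEH, 0.17 for Sst and 0.19 for Slc32a1 in TAU MOL against WT VEH, and -0.040 for Gad1 in the difference between experiments. Library size alone gave -0.024 for Cck in TAU MOL against TAU VEH, and 0.10 for Sst, 0.075 for Pvalb and 0.028 for Slc32a1 in TAU MOL against WT VEH. Only the groups compared gave -0.0067 for Cck in TAU MOL against TAU VEH, while DESeq2 gave -0.011 and its size factors in edgeR -0.012 for Gad1 in the difference between experiments. With Gad1 and Gad2 alone as denominator, the ratio differences in TAU VEH against WT VEH were -0.50 for Sst, -0.49 for Pvalb and -0.27 for Npy, and those in TAU MOL against WT VEH were -0.26 for Sst, -0.029 for Vip and -0.038 for Reln.

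Each library was left out in turn, where a group left with 1 library was assumed to vary like the others. The genes called then ranged from 1 to 15 in the basal comparison, 73 to 2798 in WT VEH against WT VEH_HC, 915 to 2944 in TAU VEH against WT VEH, 0 to 15 in TAU MOL against TAU VEH, 2 to 1379 in TAU MOL against WT VEH and 7 to 764 in the difference between experiments. Members called ranged from 0 to 2 in WT VEH against WT VEH_HC, 0 to 4 in TAU VEH against WT VEH and 0 to 2 in TAU MOL against WT VEH. The log2 fold changes that crossed 0 ran in the basal comparison from -0.41 to 0.080 for Cck, -0.042 to 0.17 for Gad1, -0.20 to 0.48 for Gad2 and -0.20 to 0.039 for Slc32a1. In WT VEH against WT VEH_HC they ran from -0.0083 to 0.25 for Sst, -0.081 to 0.20 for Cck and -0.14 to 0.039 for Gad2, and in TAU VEH against WT VEH from -0.052 to 0.18 for Vip and -0.11 to 0.21 for Reln. In TAU MOL against TAU VEH they ran from -0.042 to 0.052 for Cck, -0.22 to 0.34 for Calb2 and -0.0082 to 0.32 for Reln, in TAU MOL against WT VEH from -0.089 to 0.051 for Sst, and in the difference between experiments from -0.46 to 0.10 for Cck, -0.051 to 0.088 for Gad1 and -0.18 to 0.42 for Gad2.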

Other observations

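Markers of other hippocampal cells and neighbouring regions were summed in each library. Dentate gyrus markers (6 genes) summed to 407.6 to 580 CPM in basal WT, 369 to 548 in basal THY-Tau22, 434 to 599 in WT VEH_HC, 380.1 to 403 in WT VEH, 396 to 440.1 in TAU VEH and 374 to 512 CPM in TAU MOL libraries, and 2 of the 6 fell in WT VEH against WT VEH_HC. CA3 markers (4 of 5 in the tables) ranged from 453 to 465 CPM in TAU MOL and from 533 to 634.5 CPM in WT VEH, with 1 called lower. Mossy cell markers (4 genes) summed to 67.6 to 68.9 CPM in WT VEH_HC, 61.9 to 64.9 in WT VEH, 56.7 to 56.9 in TAU VEH, 57.0 to 57.8 in TAU MOL, 58.6 to 71.1 in basal WT and 54.4 to 54.65 CPM in basal THY-Tau22 libraries, with 0 called in any comparison, and microglia markers (5 genes) lay between 246.5 and 291 CPM. Neocortex markers (6 of 7 in the tables) ranged from 285 to 399.7 CPM over all libraries.

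Striatum markers (6 genes), several of them also expressed in the hippocampus, summed to 140.3 and 159 CPM in WT VEH and to 90.4 and 91.5 CPM in TAU VEH libraries. The other groups lay between these, at 104 to 119 CPM in WT VEH_HC, 105 to 122 CPM in basal WT and 95.6 to 115 CPM in basal THY-Tau22 libraries, so that both WT VEH libraries stood above all others. Of the 6, 2 fell in TAU VEH against WT VEH and all 6 had a negative fold change, with a median of -0.48 on the log2 scale. In TAU MOL they summed to 102 and 115 CPM, with 0 called against TAU VEH. In WT VEH against WT VEH_HC 1 was called higher and 1 lower.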
